A study of Homo sapiens with 16 samples.

Results

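RNA of 10 genes of the EGFR signaling system was followed across 6 lines made from SW480, an established human colon adenocarcinoma cell line. The genes were taken by their GENCODE symbol from the 66023 genes of the count table, and all 10 were found there. They were the receptors EGFR, ERBB2 and ERBB3, the ligands AREG, EREG, BTC, HBEGF and TGFA, and the inhibitors LRIG1 and ERRFI1. The samples came from unmodified Parental cells (n = 2), from cells with a scrambled hairpin (shScrambled, n = 2), from 2 Ajuba knockdown (KD) lines with a hairpin against the coding region (shAjuba1, n = 3) or the non-coding region (shAjuba2, n = 3) of the AJUBA mRNA, and from an overexpressing line (Ajuba OE, n = 3) with its own Control (n = 3). The Ajuba OE construct is driven by the CMV promoter, and Control cells carried that construct after removal of its Ajuba sequence in a clonal step. All transduced lines had been made with lentivirus and selected in puromycin, and Parental cells had not. The design sets lines with less or more Ajuba, a LIM domain adaptor protein, beside their controls to find which RNAs differ. Each construct was represented by a single line, so the effect of a construct and the history of its line cannot be told apart. No source says that the samples of a line came from separate transductions, and the study calls them technical replicates, so p-values measure only the spread between these samples.

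EGFR, ERBB2 and ERBB3 are receptors at the cell surface that pair with each other when a ligand binds, and their kinases then start the RAS-ERK and PI3K cascades. ERBB2 has no known ligand of its own, and ERBB3 has little kinase activity and signals through its partners, mostly after binding a neuregulin. The EGFR ligands are made as membrane proteins that ADAM proteases cut loose, and the RNA of AREG and EREG is studied in colorectal cancer as a marker of response to antibodies against EGFR. LRIG1 promotes the breakdown of the receptors, and ERRFI1 (also called MIG6) binds their kinases and blocks them.

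Total counts ranged from 30132396 to 69684675 read pairs per sample, so that even BTC, the member with the lowest level, had 16 to 101 counts in each sample, while EGFR had 4295 to 13764. AJUBA stood at 50.1 ± 3.12 RPM (reads per 1000000 read pairs counted, SD, n = 3) in shAjuba1, 62.0 ± 5.93 (n = 3) in shAjuba2 and 82.5 ± 1.26 (n = 2) in shScrambled, and at 526 ± 56.1 (n = 3) in Ajuba OE against 93.2 ± 6.34 (n = 3) in Control. The difference passed the test in shAjuba1 (log2 fold change -0.73, SE 0.083, adjusted p = 2.19e-05) and not in shAjuba2 (-0.46, SE 0.13, adjusted p = 0.0773), by the quasi-likelihood test of edgeR, with p-values adjusted by the Benjamini-Hochberg method. Without replicate 2 of shAjuba2, AJUBA passed in that line too (-0.55, edgeR adjusted p = 0.000481), and so it did against Parental cells (-0.60, edgeR adjusted p = 0.0364). Of 12 colon epithelial markers, 6 had a median of at least 10 RPM (EPCAM, KRT8, KRT18, KRT19, CDX2 and VIL1) and 6 were under 1 RPM, among them KRT20, CDX1, CEACAM5, GPA33 and LGALS4. The summed level of that list ranged from 2899 to 6975 RPM. Of 12 markers of blood, vessel, stromal and liver cells, 9 had a median under 1 RPM and 1, COL1A1, had a median of at least 10 RPM. COL1A1 line means ran from 7.14 RPM in Ajuba OE to 22.1 RPM in shAjuba2, above CDX2 (9.39 RPM) and VIL1 (11.0 RPM) in shAjuba2. The sum of the 12 stayed between 10.4 and 32.0 RPM, with COL1A1 as its largest part. Replicate 2 was the sample farthest from its line's mean in shAjuba2, Control and Ajuba OE (median absolute deviation over genes of 0.211, 0.183 and 0.188 on the log2 scale), and values without those samples are given for the members whose call they change.

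Across all 6 lines, 9 of the 10 genes differed (edgeR quasi-likelihood F test on 16 samples, Benjamini-Hochberg adjusted p under 0.05), where 45.7% of the 23597 genes tested were called. ERBB2 was the exception (adjusted p = 0.432). EREG varied most among the members, with a 7.17-fold span between the highest and the lowest line mean, followed by AREG (3.66-fold) and BTC (3.22-fold), whereas EGFR spanned 1.57-fold and ERBB2 1.18-fold. In bulk RNA, fewer cells that express a gene and less RNA per cell cannot be told apart. These spans include the spread within lines, which was widest for EREG, with a coefficient of variation of 31.0% in Control.

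**Figure D1:**
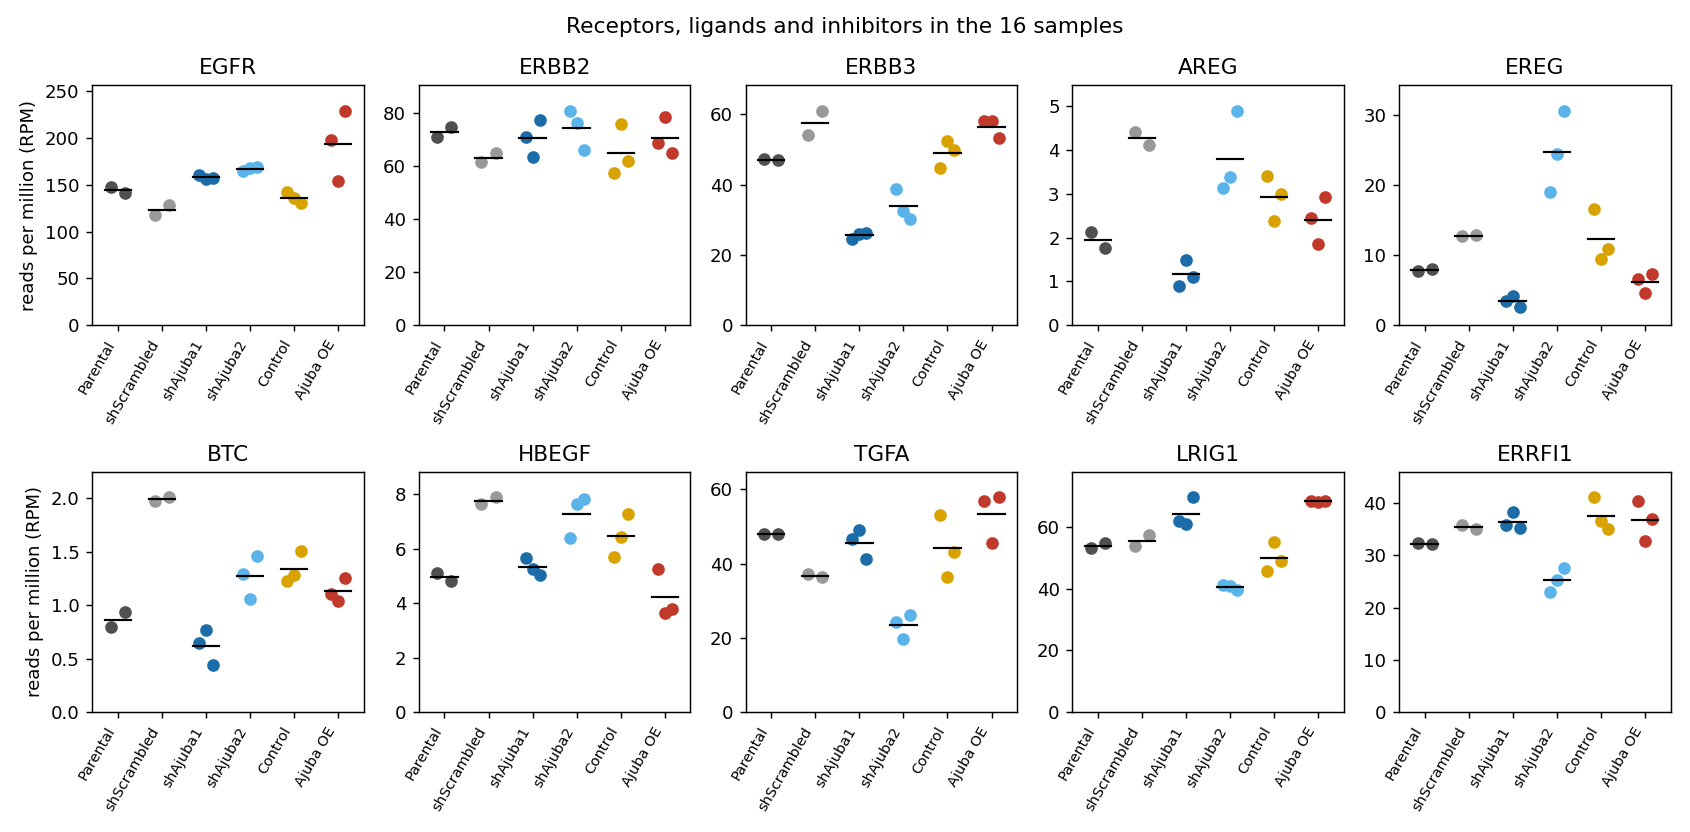
RPM of each receptor, ligand and inhibitor (vertical axes from 0) in the 16 samples of 6 lines, where a point is a sample and the bar is the line mean. AREG, EREG and BTC are lowest in shAjuba1, EREG is highest in shAjuba2 at 19.0 to 30.6 RPM, and ERBB3 is lower in both KD lines than in all other samples.

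Against shScrambled, shAjuba1 cells had lower RNA of the ligands AREG, EREG, BTC and HBEGF and of the receptor ERBB3, and higher EGFR and TGFA. AREG and EREG each fell about 3.8-fold (3.78-fold and 3.76-fold) and BTC 3.27-fold. By the edgeR test, 7 of 10 members were called, 2 higher and 5 lower, where 38.4% of the 21082 genes tested were called, 18.2% higher and 20.2% lower. In shAjuba2 the pattern was another. EREG was higher, 1.87-fold, and ERBB3, TGFA, LRIG1 and ERRFI1 were lower, so that 5 of 10 members were called, 1 higher and 4 lower, where 7.63% of 22446 genes were called, 3.19% higher and 4.44% lower. Without replicate 1 or replicate 2 of shScrambled, which leaves a lone control sample, 0 members were called in shAjuba2 by edgeR, where 0.950% and 0.784% of genes were called. Without replicate 1 of shAjuba2, 1 member was called (2.24% of genes), and without replicate 3 of shAjuba2, 2 were (6.33% of genes). With Ajuba overexpressed, only LRIG1 passed the test among the members, 1.43-fold higher, so that 1 of 10 was called, where 5.43% of 21140 genes were called. Of all genes, 2.39% were called higher (506) and 3.03% lower (641), a split that became 360 and 748 with scaling by total counts. Of the members in that comparison, 5 had an unadjusted p under 0.05, as did 18.6% of all genes tested, and DESeq2 called 3, where it called 6.30% of genes.

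**Figure D2:**
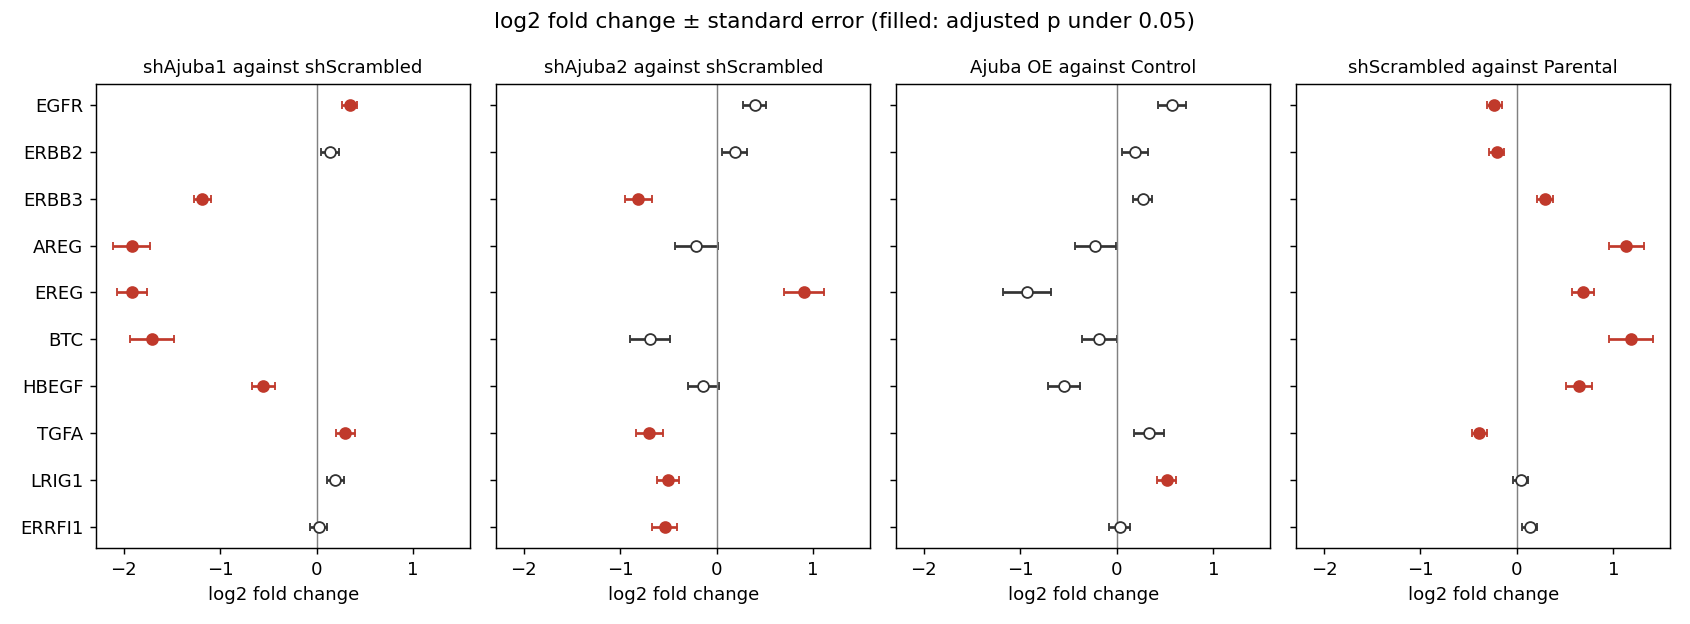
log2 fold change (horizontal axis) with its standard error for the 10 members in 4 comparisons of lines, where filled red points have an adjusted p under 0.05. EREG lies at -1.91 in shAjuba1 and at 0.91 in shAjuba2, while the shScrambled control itself differs from Parental in 8 of 10 members.

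AREG, EREG and BTC, the ligands with the largest changes in shAjuba1 against shScrambled, are neighbors on chromosome 4 (hg38). In Ajuba OE against Control, AREG (-0.22 on the log2 scale) and BTC (-0.18) had the smallest changes of the ligands. EREG (ENSG00000124882, epiregulin) lies at 74365145 to 74388749 on the plus strand with 5 merged exons, AREG (ENSG00000109321, amphiregulin) at 74445136 to 74455005 on the same strand with 6, and BTC (ENSG00000174808, betacellulin) at 74744759 to 74794523 on the minus strand with 6. The gaps between them are 56.4 kb and 289.8 kb. Over the 16 samples, which fall into 6 lines, Pearson r on log2 CPM was 0.88 for AREG and BTC, 0.87 for AREG and EREG, and 0.68 for EREG and BTC. HBEGF, on chromosome 5, had r = 0.64 with EREG, 0.54 with AREG and 0.49 with BTC. For TGFA, on chromosome 2, r was -0.65, -0.38 and -0.19 in the same order. In shAjuba2 against shScrambled the 3 neighbors parted, with EREG at 0.91, AREG at -0.21 and BTC at -0.70, and only EREG was called. The 250 bases before the start of each gene are shown because these members are neighbors with partly related patterns across the lines. They are from RefSeq on GRCh38.p14, chr4:74364895-74365144 for EREG, chr4:74444886-74445135 for AREG and chr4:74794524-74794773 (minus strand) for BTC, written 5′ to 3′ on the strand of the gene. Capitals mark matches, on either strand, to the motifs searched: the cAMP response element (TGACGTCA), the AP-1 site (TGANTCA) and the TEAD site (CATTCC).
EREG: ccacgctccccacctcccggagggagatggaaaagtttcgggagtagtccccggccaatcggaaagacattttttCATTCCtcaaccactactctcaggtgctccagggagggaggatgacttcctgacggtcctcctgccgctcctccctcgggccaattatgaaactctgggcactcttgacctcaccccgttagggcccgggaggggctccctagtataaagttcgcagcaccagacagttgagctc
AREG: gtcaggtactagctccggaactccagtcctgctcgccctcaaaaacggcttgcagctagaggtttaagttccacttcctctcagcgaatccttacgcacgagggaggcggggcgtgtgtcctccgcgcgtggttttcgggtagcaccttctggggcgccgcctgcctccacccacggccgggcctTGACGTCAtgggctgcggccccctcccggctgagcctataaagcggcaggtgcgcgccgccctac
BTC: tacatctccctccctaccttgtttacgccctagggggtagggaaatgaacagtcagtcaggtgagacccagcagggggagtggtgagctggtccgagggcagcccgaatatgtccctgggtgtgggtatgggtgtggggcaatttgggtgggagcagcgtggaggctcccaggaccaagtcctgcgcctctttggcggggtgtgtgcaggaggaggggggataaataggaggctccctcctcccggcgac
AREG held the cAMP response element, beginning 65 bases before the start, a match found in 1.65% of 35116 promoters of this length. EREG held the TEAD site, beginning 175 bases before the start, which 11.9% of the promoters share. BTC held none of the 3 motifs, and no AP-1 site (6.57% of promoters) was found in any of the 3 windows. A match is a run of letters and not evidence of binding.

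EREG was at 12.7 and 12.8 RPM in shScrambled and at 3.45, 4.21 and 2.65 RPM in shAjuba1. All shAjuba1 samples lay below every other sample of the study. The log2 fold change was -1.91 (SE 0.155, edgeR adjusted p = 1.30e-06). In shAjuba2, EREG reached 19.0, 24.4 and 30.6 RPM, above all samples of the other 5 lines. That was a log2 fold change of 0.91 (SE 0.209, edgeR adjusted p = 0.0415) against shScrambled. The call was lost without replicate 1 (adjusted p = 0.277) or 2 (0.273) of shScrambled and without replicate 3 of shAjuba2 (0.0558), with log2 fold changes of 0.74 to 0.91. Control cells had 16.6, 9.40 and 10.8 RPM and Ajuba OE cells 6.62, 4.56 and 7.27 RPM, without overlap. The difference, -0.93 (SE 0.250), had an adjusted p of 0.0852 in edgeR's test, and 0.0206 without replicate 2 of both lines. Parental cells, at 7.80 and 7.99 RPM, lay between the controls and the shAjuba1 cells. Against Parental cells as the control line, EREG was again lower in shAjuba1 (-1.24, edgeR adjusted p = 0.000174) and higher in shAjuba2 (1.58, edgeR adjusted p = 0.0130), while Ajuba OE cells differed by -0.31 (adjusted p = 0.455).

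AREG had a low RPM in all lines, with 4.42 and 4.11 RPM in shScrambled and 0.900, 1.49 and 1.1 RPM in shAjuba1. Per kb of merged exons, its median over the 16 samples was 1.64 RPM, near that of EREG at 1.52. All shAjuba1 samples were below those of the other lines. AREG fell by 1.92 on the log2 scale in shAjuba1 (SE 0.192, edgeR adjusted p = 7.56e-06). shAjuba2 samples had 3.14, 3.38 and 4.90 RPM and overlapped shScrambled (-0.21, SE 0.224, edgeR adjusted p = 0.593). Ajuba OE samples, at 2.45, 1.85 and 2.92 RPM, overlapped those of Control at 3.41, 2.39 and 3.01 RPM. Parental cells had 2.12 and 1.77 RPM, so the fall of AREG in shAjuba1 was smaller against them (-0.79, edgeR adjusted p = 0.0147).

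BTC followed AREG at a lower level, with 1.98 and 2.01 RPM in shScrambled against 0.649, 0.763 and 0.442 RPM in shAjuba1. It fell by 1.71 on the log2 scale (SE 0.226, edgeR adjusted p = 7.94e-05), and all shAjuba1 samples lay below every other sample. In shAjuba2, BTC had 1.29, 1.06 and 1.46 RPM, also below shScrambled, but the difference of -0.70 (SE 0.208) had an adjusted p of 0.0856. Parental cells had 0.798 and 0.933 RPM, and the shAjuba1 change against them was -0.53 (adjusted p = 0.140). In shAjuba2 the sign turned against Parental cells (0.49, adjusted p = 0.200).

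HBEGF and TGFA lie outside the cluster, and in shAjuba1 they changed by less than its 3 ligands. HBEGF (heparin-binding EGF, chromosome 5) was at 7.65 and 7.89 RPM in shScrambled and at 5.67, 5.28 and 5.05 RPM in shAjuba1, a log2 fold change of -0.56 (SE 0.119, edgeR adjusted p = 0.00268). That fall was not seen against Parental cells, which had 5.11 and 4.83 RPM (0.08, adjusted p = 0.660). In Ajuba OE, HBEGF had 5.25, 3.65 and 3.80 RPM, below the 5.71, 6.43 and 7.29 RPM of Control, with a log2 fold change of -0.55 (SE 0.168, adjusted p = 0.123). TGFA, the ligand with the highest level, was at 37.3 and 36.3 RPM in shScrambled. It was higher in shAjuba1, at 46.5, 49.1 and 41.2 RPM (log2 fold change 0.30, SE 0.0994, edgeR adjusted p = 0.0320), and lower in shAjuba2, at 24.3, 19.8 and 26.2 RPM (-0.70, SE 0.140, edgeR adjusted p = 0.0269). Both KD lines were thus apart from shScrambled, on opposite sides. The call in shAjuba1 was lost without replicate 1 or 2 of either line (edgeR adjusted p from 0.102 to 0.204), and that in shAjuba2 without replicate 1 of shAjuba2 or either sample of shScrambled (0.101 to 0.248). Parental cells had 47.9 RPM in each sample, within the range of shAjuba1. Against them shAjuba1 differed by -0.10 (adjusted p = 0.434) and shAjuba2 by -1.09 (adjusted p = 0.0108). In Ajuba OE, at 56.9, 45.6 and 57.9 RPM, TGFA overlapped Control at 53.1, 36.5 and 43.3 RPM.

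Between genes, levels were compared per kb of merged exons. On that scale TGFA made up 47.8% ± 0.339 (SD, n = 2) of the summed level of the 5 ligands in shScrambled, 73.6% ± 0.613 (n = 3) in shAjuba1 and 33.5% ± 4.48 (n = 3) in shAjuba2. EREG made up 14.3% ± 0.291 (n = 2), 4.74% ± 0.657 (n = 3) and 30.0% ± 3.47 (n = 3) of it in the same lines. The sums themselves lay closer together, at 15.7 ± 0.191 (n = 2) RPM per kb in shScrambled, 12.6 ± 1.16 (n = 3) in shAjuba1 and 14.3 ± 2.20 (n = 3) in shAjuba2. Ajuba OE had a TGFA share of 71.3% ± 0.919 (n = 3) against 57.5% ± 1.72 (n = 3) in Control, and an EREG share of 6.99% ± 0.725 (n = 3) against 13.6% ± 2.11 (n = 3). In Parental cells TGFA took 68.2% ± 0.737 (n = 2). These shares use all exons of a gene, whichever transcripts the cells make.

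**Figure D3:**
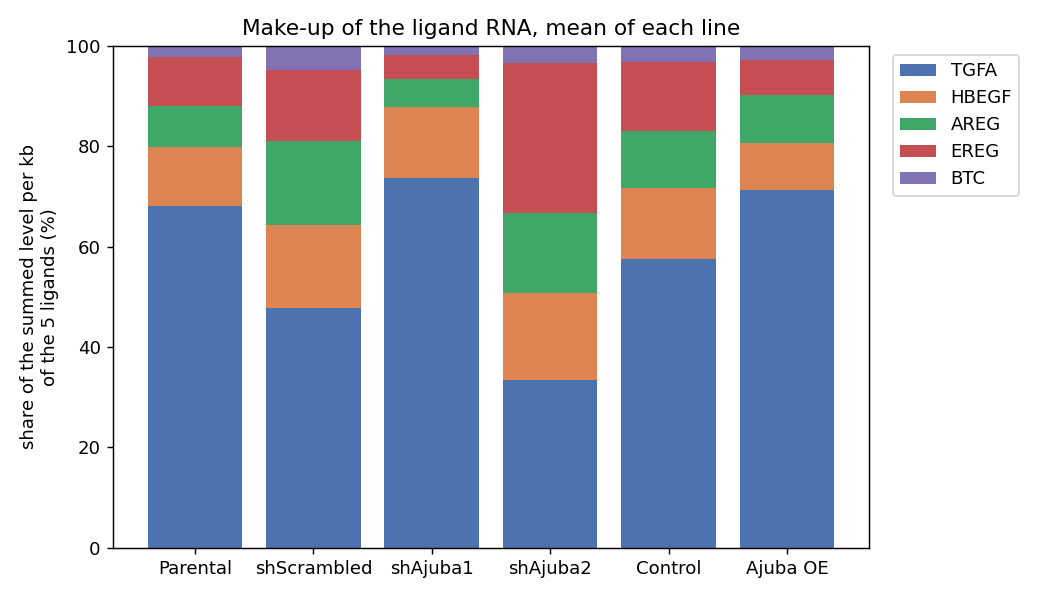
Share of each ligand in the summed level per kb of the 5 ligands (vertical axis, percent, from 0 to 100), mean of the samples of each of the 6 lines. TGFA takes 73.6% in shAjuba1 and 33.5% in shAjuba2, and EREG takes 4.74% and 30.0% in these lines.

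The KD lines were also compared with each other, a test that does not use shScrambled. Of 10 members, 6 were called, 3 higher and 3 lower in shAjuba1, where 19.6% of 21600 genes were called, 9.47% higher and 10.1% lower. EREG differed most, 6.96-fold lower in shAjuba1 (log2 fold change -2.80, SE 0.225, edgeR adjusted p = 7.39e-05). AREG (-1.68, SE 0.249, edgeR adjusted p = 0.00163) and BTC (-1.0, SE 0.251, edgeR adjusted p = 0.0219) were lower as well, BTC with no call without replicate 1 or 3 of shAjuba1 or replicate 1 of shAjuba2 (adjusted p from 0.0634 to 0.0808). TGFA was 2.01-fold higher in shAjuba1 (1.01, SE 0.134, edgeR adjusted p = 0.000917), and so were LRIG1 and ERRFI1. ERBB3 differed by -0.36 (edgeR adjusted p = 0.0654) and was called without replicate 2 (-0.37, edgeR adjusted p = 0.0292) or 3 (-0.44, edgeR adjusted p = 0.0350) of shAjuba2. EGFR differed by -0.03 (SE 0.101, adjusted p = 0.837).

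Among the receptors, ERBB3 (ENSG00000065361, chromosome 12, 56076799 to 56103505) had the largest changes and was lower in both KD lines. shScrambled had 54.1 and 61.0 RPM, shAjuba1 24.6, 25.9 and 26.3 RPM, and shAjuba2 38.8, 32.6 and 30.3 RPM. No sample of the other 4 lines was as low as any KD sample, with Parental at 47.2 and 46.9 RPM. The fall was 2.27-fold in shAjuba1 (log2 fold change -1.19, SE 0.0894, edgeR adjusted p = 7.63e-07) and 1.76-fold in shAjuba2 (-0.81, SE 0.139, edgeR adjusted p = 0.0160). In shAjuba2 the call was lost without replicate 1 of shAjuba2 (adjusted p = 0.0509) and without replicate 1 (0.117) or 2 (0.211) of shScrambled. These comparisons share the shScrambled samples. Against Parental cells the changes were -0.91 (edgeR adjusted p = 1.05e-05) and -0.54 (edgeR adjusted p = 0.0502). Ajuba OE samples, at 58.1, 57.9 and 53.2 RPM, lay just above those of Control at 44.7, 52.5 and 49.8 RPM, and the difference of 0.27 (SE 0.0985) did not pass (edgeR adjusted p = 0.196).

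EGFR (ENSG00000146648, chromosome 7, 55019017 to 55211628) had the highest level of the receptors. It was at 118 and 129 RPM in shScrambled, 160, 157 and 157 RPM in shAjuba1, and 165, 169 and 169 RPM in shAjuba2. Both KD lines lay above shScrambled without overlap. The difference passed the test in shAjuba1 (1.27-fold, log2 fold change 0.34, SE 0.0777, edgeR adjusted p = 0.00390) and missed it in shAjuba2 (1.31-fold, 0.39, SE 0.121, edgeR adjusted p = 0.0908), where it passed without replicate 2 of shAjuba2 (0.37, edgeR adjusted p = 0.0113). Without replicate 1 of shScrambled, the shAjuba1 change was 0.30 (edgeR adjusted p = 0.0674). Parental cells had 148 and 141 RPM, and against them the changes were 0.10 (adjusted p = 0.284) and 0.15 (adjusted p = 0.377). In Ajuba OE, EGFR was at 198, 155 and 229 RPM against 142, 136 and 131 RPM in Control. All 3 Ajuba OE samples were above Control, and the log2 fold change of 0.57 (SE 0.142) had an edgeR adjusted p of 0.0671. Without replicate 2 of Ajuba OE, the lowest of the 3, it was 0.70 (edgeR adjusted p = 0.0205). All KD and Ajuba OE samples thus lay above those of their own control line, with a called difference in shAjuba1. The exons of EGFR share 186 bases, 1.17% of their length, with the antisense gene EGFR-AS1, which had 8 to 42 counts.

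ERBB2 (ENSG00000141736, chromosome 17, 39687914 to 39730426) was not called in any of the 3 comparisons with a matched control. Its levels ran from 57.4 to 80.9 RPM over the 16 samples. The log2 fold changes were 0.14 (SE 0.0934, adjusted p = 0.248) in shAjuba1, 0.19 (SE 0.131, adjusted p = 0.410) in shAjuba2 and 0.19 (SE 0.136, adjusted p = 0.541) in Ajuba OE. Genes on the opposite strand, MIEN1 and PGAP3, overlap 5.53% and 1.40% of its exons. Per kb of exon, ERBB3 made up 26.2% ± 0.611 (SD, n = 2) of the 3 receptors in shScrambled, 11.6% ± 0.570 (n = 3) in shAjuba1 and 14.0% ± 1.23 (n = 3) in shAjuba2, while EGFR made up 41.2% ± 0.124 (n = 2), 52.4% ± 1.95 (n = 3) and 51.1% ± 3.04 (n = 3).

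Both inhibitors changed in shAjuba2, and LRIG1 also in Ajuba OE. LRIG1 (chromosome 3) was at 53.8 and 57.3 RPM in shScrambled and at 41.0, 40.7 and 39.5 RPM in shAjuba2, a log2 fold change of -0.51 (SE 0.112, edgeR adjusted p = 0.0369). In Ajuba OE it was at 68.3, 68.2 and 68.3 RPM, above the 45.6, 55.0 and 48.8 RPM of Control (0.52, SE 0.0985, edgeR adjusted p = 0.0252). Against Parental cells, at 53.2 and 54.6 RPM, LRIG1 was lower in shAjuba2 (-0.48, edgeR adjusted p = 0.0414), and in Ajuba OE the difference was 0.39 (edgeR adjusted p = 0.0526). The Ajuba OE call was lost without any sample of either line but replicate 2 of Control (edgeR adjusted p from 0.0553 to 0.144), at log2 fold changes of 0.46 to 0.54. That in shAjuba2 was lost without either shScrambled sample or replicate 1 or 3 of shAjuba2 (0.0719 to 0.355). shAjuba1, at 62.0, 61.0 and 69.5 RPM, lay above shScrambled, but the difference of 0.19 (SE 0.0877) did not pass (edgeR adjusted p = 0.102). The exons of LRIG1 overlap those of SLC25A26 on the opposite strand over 37.9% of their length, so part of its count is uncertain if strand was not used in counting. ERRFI1 (chromosome 1) was at 35.9 and 35.1 RPM in shScrambled, 35.7, 38.3 and 35.2 RPM in shAjuba1, and 23.0, 25.2 and 27.5 RPM in shAjuba2. The shAjuba2 samples were below all others of the study, with a log2 fold change of -0.54 (SE 0.129, edgeR adjusted p = 0.0461), a call lost without the same samples as that of LRIG1 (0.0537 to 0.367). It was also lost with total count scaling (edgeR adjusted p = 0.0597), DESeq2 size factors (0.0511), at least 10 counts in every sample (0.0515) and against Parental cells (-0.41, edgeR adjusted p = 0.0847). The LRIG1 call was lost with total count scaling as well (0.0518). shAjuba1 overlapped shScrambled (0.02, SE 0.0894, adjusted p = 0.880), and Ajuba OE differed from Control by 0.03 (SE 0.108, adjusted p = 0.920).

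The control lines were not alike. Between shScrambled and Parental cells, 8 of 10 members were called, 5 higher and 3 lower in shScrambled, where 30.7% of 21289 genes were called, 15.0% higher and 15.6% lower. AREG (1.13, SE 0.180, edgeR adjusted p = 3.92e-05), BTC (1.18, SE 0.232, edgeR adjusted p = 0.000416), EREG (0.69, SE 0.113, edgeR adjusted p = 6.57e-05) and HBEGF (0.64, SE 0.134, edgeR adjusted p = 0.000782) were higher in shScrambled. ERBB3 was higher by 0.29 (SE 0.0809, edgeR adjusted p = 0.00865). EGFR (-0.23), ERBB2 (-0.21) and TGFA (-0.39) were lower. The calls of EGFR, ERBB2 and ERBB3 were lost without either Parental sample (edgeR adjusted p from 0.0621 to 0.320), those of EGFR (0.133) and ERBB2 (0.136) without replicate 1 of shScrambled, those of ERBB2 (0.0699) and ERBB3 (0.15) without its replicate 2, and all but those of AREG, BTC and HBEGF were lost with all 16 samples in 1 fit. The shScrambled samples enter this comparison and both KD comparisons. With Parental cells in the place of shScrambled, 3 members were called in shAjuba1 (ERBB3, AREG and EREG, all lower), where 38.1% of genes were called, and 3 in shAjuba2 (EREG higher, TGFA and LRIG1 lower), where 8.14% were. Between Control and Parental cells 0 of 10 members were called by edgeR and 0 by DESeq2, where 0.370% of 21644 genes were called by edgeR and 2.19% by DESeq2. The ligands AREG (0.60), EREG (0.64), HBEGF (0.40) and BTC (0.63) were above Parental without overlap, and these 4 had an unadjusted p under 0.05, as did 19.5% of all genes tested. Without replicate 2 of Control, AREG (0.72, edgeR adjusted p = 0.0479) and EREG (0.79, edgeR adjusted p = 0.0235) were called.

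Of the 7 other receptors and ligands of the family, 3 or 4 passed the filter on low counts, and only NRG1 (neuregulin, a ligand of ERBB3) passed the test, and it did so in all 3 comparisons. NRG1 was thus 1 of 3 genes tested for shAjuba1, where 38.4% of all genes were called. For shAjuba2 and Ajuba OE it was 1 of 4, against 7.63% and 5.43% of all genes. NRG1 was at 1.37 and 0.954 RPM in shScrambled, 0.502, 0.631 and 0.331 RPM in shAjuba1, and 8.11, 6.35 and 8.95 RPM in shAjuba2. The lines did not overlap. NRG1 was 2.38-fold lower in shAjuba1 (log2 fold change -1.25, SE 0.293, edgeR adjusted p = 0.00470) and 6.56-fold higher in shAjuba2 (2.71, SE 0.243, edgeR adjusted p = 0.00144). In Ajuba OE it had 3, 3 and 2 counts, against 67, 53 and 77 counts in Control. Pooled over samples and scaled by their totals, Control had 30.5 times the NRG1 of Ajuba OE (95% exact interval 15.2 to 71.5, counting error only), and the edgeR adjusted p was 0.000750. Without replicate 1 of shScrambled the shAjuba1 change was -0.97 (edgeR adjusted p = 0.0776). The call held in all 3 comparisons against Parental cells, with log2 fold changes of -2.02 (edgeR adjusted p = 0.000148) in shAjuba1 and 1.95 (edgeR adjusted p = 0.00905) in shAjuba2. ERBB3 was thus lower in both KD lines while its ligand was lower in shAjuba1 and higher in shAjuba2. Of the rest, ERBB4 and NRG3 had a median of 0 counts, EGF and EPGN stayed below 0.4 RPM, NRG4 was at 0.494 to 0.905 RPM, and NRG2 at 2.65 to 4.55 RPM.

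**Figure D4:**
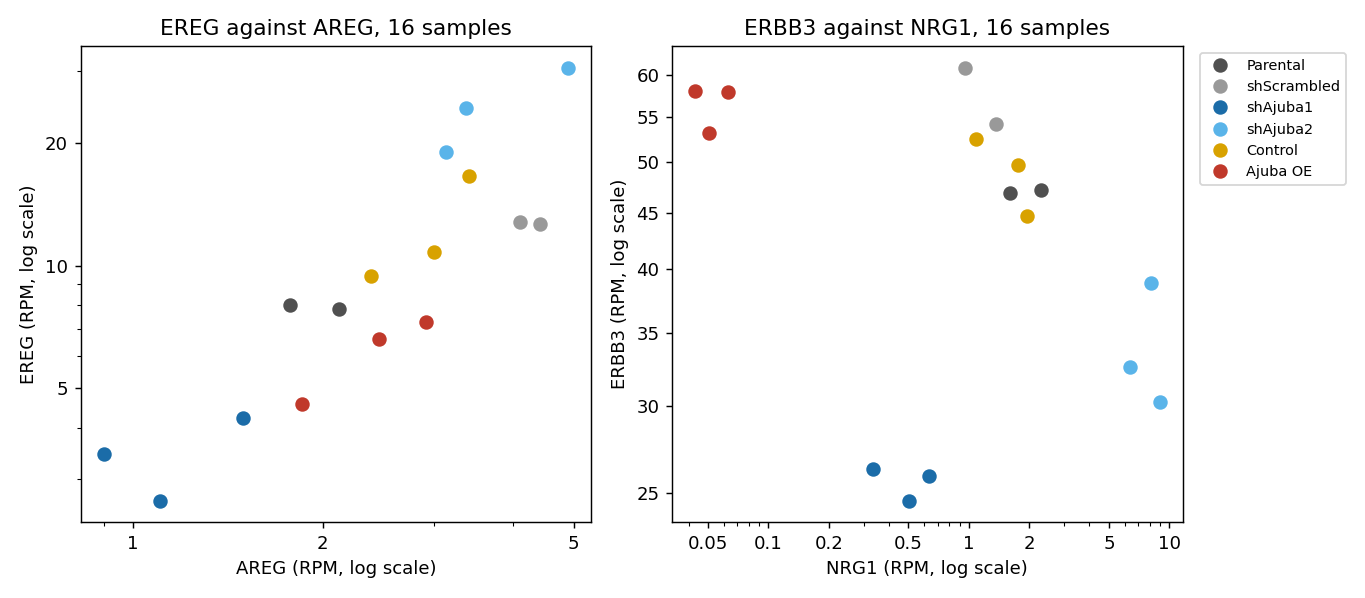
RPM of EREG against AREG (left) and of ERBB3 against its ligand NRG1 (right) on log axes, where each point is 1 of 16 samples colored by line. The shAjuba1 and shAjuba2 samples lie at opposite ends of the EREG axis (2.65 to 4.21 and 19.0 to 30.6 RPM), and both have at most 38.8 RPM of ERBB3 while their NRG1 differs.

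The wider pathway changed gene by gene. For ligand shedding, 4 of 10 genes tested were called in shAjuba1 (1 higher, 3 lower, list median log2 fold change 0.10), 1 of 9 in shAjuba2 (lower, median -0.16) and 1 of 9 in Ajuba OE (lower, median 0.10). Among all genes tested, the called shares of these comparisons were 38.4%, 7.63% and 5.43%, so the shedding count in shAjuba1 was close to the share of all genes. TIMP3, an inhibitor of ADAM17, was the gene lower in all 3 comparisons, by -0.56 (edgeR adjusted p = 0.000202), -1.04 (edgeR adjusted p = 0.00955) and -0.75 (edgeR adjusted p = 0.0115). Against Parental cells TIMP3 changed by 0.22 in shAjuba1 (adjusted p = 0.0633) and -0.25 in shAjuba2 (adjusted p = 0.303). Its call was also lost without either shScrambled sample in shAjuba2 (adjusted p = 0.103 and 0.0996) and without replicate 3 of Control (0.0795) or of Ajuba OE (0.0632). The protease ADAM9 was 1.78-fold lower and ADAM19 1.40-fold higher in shAjuba1. Over all genes tested, the median log2 fold change was -0.01 in each of the 3 comparisons, to 2 decimals. Of the 11 genes named from the pathway lists in shAjuba2, NRG1 included, 10 lost their call without either shScrambled sample and 7 lost it against Parental cells, where NRG1, SH3KBP1, SPRY2 and FOS kept it. Without replicate 1 of shAjuba2, 6 of them lost it (EPS8, STAT5B, PIK3R1, DUSP4, SPRY2 and FOS, edgeR adjusted p from 0.0658 to 0.132), and without replicate 3 STAT5B and PIK3R1 did (0.0686 and 0.0613).

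Of 18 adaptors and proximal effectors, 9 were called in shAjuba1 (4 higher, 5 lower, median -0.02), 3 in shAjuba2 (1 higher, 2 lower, median 0.04) and 0 in Ajuba OE (median 0.02, 2 with an unadjusted p under 0.05). The shares of all genes called were 38.4%, 7.63% and 5.43% in the same order. EPS8, a substrate of the EGFR kinase, was lower in shAjuba1 by 2.24 on the log2 scale (SE 0.104, edgeR adjusted p = 1.42e-08), at 7.57 RPM against 35.5 RPM in shScrambled, and in shAjuba2 by 0.78 (SE 0.134, edgeR adjusted p = 0.0162). SOS1, the exchange factor that activates RAS, and the adaptor SHC1 were 1.45-fold and 1.32-fold lower in shAjuba1. PIK3R1, the regulatory subunit of PI3K, was 1.40-fold higher and STAT5B 1.45-fold lower in shAjuba2.

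Of 21 genes of receptor turnover and other inhibition, 11 were called in shAjuba1 (2 higher, 9 lower, median -0.11), 4 in shAjuba2 (2 higher, 2 lower, median -0.08) and 1 in Ajuba OE (lower, median 0.01). Over all genes, 38.4%, 7.63% and 5.43% were called in these comparisons. SH3KBP1, which links CBL to endocytosis of EGFR, was 2.64-fold lower in shAjuba1 and 2.19-fold lower in shAjuba2 (edgeR adjusted p = 4.77e-08 and 0.00480). The phosphatase gene PTPRJ and the endocytic adaptor EPS15 were 2.48-fold and 1.70-fold lower in shAjuba1, and UBASH3B was 1.91-fold lower in shAjuba2. ANXA1, an EGFR substrate, was 3.10-fold higher in shAjuba2 (298 against 92.9 RPM, edgeR adjusted p = 0.00753) and 13.2-fold lower in Ajuba OE (7.87 against 109 RPM, edgeR adjusted p = 0.000153).

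Of 15 genes that ERK signaling induces, 12 were called in shAjuba1, 6 higher and 6 lower (median -0.03), 3 in shAjuba2, all higher (median 0.37), and 1 in Ajuba OE, higher (median 0.17). The shares over all genes were again 38.4%, 7.63% and 5.43%. In shAjuba1, MYC was 1.92-fold higher, at 189 against 97.3 RPM (edgeR adjusted p = 1.57e-06). SPRED1 and SPRY2, both feedback inhibitors, were 2.15-fold and 2.02-fold lower. Against Parental cells the log2 fold changes were 0.46 for MYC (0.94 against shScrambled), -0.85 for SPRED1 (-1.10) and -0.60 for SPRY2 (-1.01). Other DUSP, SPRY and SPRED genes of the list went both ways. DUSP4 (76.9 against 46.7 RPM), DUSP5 (44.3 against 25.1 RPM) and SPRY4 (260 against 185 RPM) had higher means than in shScrambled. DUSP6 was lower (191 against 256 RPM) and SPRED2 nearly level (94.9 against 90.3 RPM). In shAjuba2 the called genes were DUSP4 (1.53-fold), SPRY2 (1.57-fold) and FOS (1.57-fold), so SPRY2 moved one way in shAjuba1 and the other way in shAjuba2. MYC was the called gene in Ajuba OE, 1.78-fold higher, at 219 against 128 RPM (edgeR adjusted p = 0.00580).

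Of the protein-coding genes that flank the ligand cluster, MTHFD2L, PARM1 and RCHY1 were not called in the KD lines against shScrambled, and EPGN, directly before EREG, was too low to be tested. MTHFD2L, before EPGN, ran from 11.3 to 15.8 RPM over all samples and changed by 0.19 in shAjuba1 (adjusted p = 0.278) and 0.21 in shAjuba2 (adjusted p = 0.327). Without replicate 3 of shAjuba1 it was called in that line (0.32, edgeR adjusted p = 0.00511). PARM1, next after BTC, changed by 0.00 (SE 0.166) in shAjuba1 and 0.20 (SE 0.212) in shAjuba2, and was higher in Ajuba OE by 1.41 (SE 0.111, edgeR adjusted p = 0.000624), at 12.8, 11.0 and 11.9 RPM against 4.34, 4.77 and 4.90 RPM. Against Parental cells, at 6.08 and 7.80 RPM, PARM1 was lower in shAjuba1 (-1.57, edgeR adjusted p = 2.18e-05), in shAjuba2 (-1.37, edgeR adjusted p = 0.0149) and in shScrambled (-1.56, edgeR adjusted p = 1.59e-07). RCHY1, farther on, was at 14.5 to 26.0 RPM and was not called in any of these comparisons.

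Over the 16 samples, the gene profiles most like that of AREG among 12871 protein-coding genes were AKAP12 (Pearson r = 0.94 on log2 CPM), DYNLT3 (0.93) and TRIM38 (0.92). BTC (0.88) and EREG (0.87) ranked 15 and 23 in that order. For EGFR the most alike were SMURF2 (0.88), TNFRSF10A (0.87) and MYC (0.85), and its most similar member was LRIG1 (0.38, rank 1864). TGFA and ERRFI1 had r = 0.88, and EREG and LRIG1 r = -0.85. These correlations describe 16 samples that fall into 6 lines, and samples of a line share their construct and history.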

How the data were processed

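RNA-seq was analysed in 16 samples of SW480 lines. The values deposited by the authors are raw counts, 1 per gene and sample. Per the labels, stranded mRNA libraries were sequenced paired-end, and the submitters' processing notes and the paper's methods name HISAT2, featureCounts and hg38 (GRCh38). The strand option and annotation release of the counting are not given in the sources used here. Counts of genes with an antisense partner are thus uncertain over the exons they share.

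RPM was computed here from the deposited counts, as 1000000 times the count over the sample total. RPM ignores gene length and RNA composition, whereas fold changes used TMM scaling. Symbols, positions and merged exon lengths came from GENCODE for hg38 (56434 of 66023 genes matched by identifier), and promoters from RefSeq on GRCh38.p14, with an entry for 9 of 10 members.

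Each pair of lines was fitted alone with edgeR 4.0.16 (R 4.3.3, limma 3.58.1): filterByExpr, TMM, and the quasi-likelihood test, two-sided, with Benjamini-Hochberg adjustment over all genes tested, called under 0.05. All 10 members passed the filter in each comparison. SE is the absolute log2 fold change over the square root of F. Log2 CPM used a prior count of 2. The script recovered changes in counts simulated from edgeR's own model, with no outlying sample and with changes larger than most member changes. That checks the code and not the error rate of the calls. DESeq2 1.42.0, other scalings and filters, a replicate block, a joint fit, other control lines and leaving out each replicate were alternatives. Plots used matplotlib 3.10.9 under Python 3.11.15.

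The members and the gene lists were chosen with earlier results of these data known, so they give no independent support. Besides the members, genes were named by rule: up to 3 called genes of smallest adjusted p per pathway list and main comparison, the 3 genes most like EGFR and like AREG (mean of at least 1 RPM), exon-overlapping genes, and the protein-coding genes flanking the EREG, AREG and BTC cluster. The pathway lists were ligand shedding, adaptors, receptor turnover, ERK-induced genes and the other receptors and ligands. No pair of replicates agreed within sampling noise. Correlations of the deviations of same-numbered samples ran from -0.0494 to 0.505 between Ajuba OE and Control, highest for replicate 2. No source says that equal numbers mark a pair, so the main fits did not use them.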

Additional observations from a re-analysis of the deposited data

Results flagged for a closer look

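The difference from shScrambled was not the same in the 2 KD lines for 6 members, by a direct edgeR test of shAjuba1 against shAjuba2, Benjamini-Hochberg adjusted, in which their shared shScrambled control drops out. EREG differed by -2.80 on the log2 scale (shAjuba1 minus shAjuba2, adjusted p = 7.39e-05), and all 3 shAjuba1 samples were below the 3 of shAjuba2. AREG differed by -1.68 (adjusted p = 0.00163) and BTC by -1.0 (adjusted p = 0.0219), likewise lower in shAjuba1. TGFA differed by 1.01 (adjusted p = 0.000917), LRIG1 by 0.71 (adjusted p = 0.00143) and ERRFI1 by 0.58 (adjusted p = 0.00782), with all 3 shAjuba1 samples above those of shAjuba2. AJUBA itself was at 50.1 RPM in shAjuba1 and 62.0 RPM in shAjuba2 (-0.26, adjusted p = 0.141). Whether its level has a part in these differences was not tested.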

How the results depend on the processing

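Of 101 recomputed counts of called members, 78 stayed within 1.5 times the count reported, and of 1359 recomputed log2 fold changes of named genes, 1186 kept their direction and their side of the threshold, 97 lost the call, 40 gained it and 36 changed sign. The count over the 6 lines stayed at 9 in all 23 alternatives, and DESeq2 size factors moved no count of called members by over 1.5 times. In shAjuba1 the count went from 7 to 3 with Parental cells as the control line and ranged from 5 to 7 with each replicate left out. In shAjuba2 it went from 5 to 3 with total count scaling, 3 with Parental cells, and 0 to 6 with each replicate left out. In Ajuba OE it went from 1 to 3 with DESeq2, 3 with genes of at least 1 count, 4 with all 16 samples in 1 fit, 0 with Parental cells, 6 with shScrambled cells, and 0 to 3 with each replicate left out (3 without replicate 2 of both lines). For shScrambled against Parental it went from 8 to 3 with all 16 samples in 1 fit and to 5 to 6 with each replicate left out, and for Control against Parental from 0 to 1 with genes of at least 1 count and 0 to 2 with each replicate left out. Where a lone control sample was left, it was assumed to vary like the other line.

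A replicate block called 7 members in Ajuba OE (5 higher, 2 lower) in place of 1, and 5140 genes in place of 1147. In the same block fit, the counts were 7 in shAjuba1 (8863 genes in place of 8103) and 6 in shAjuba2 (5377 genes in place of 1713). They were 5 between the KD lines and 6 for shScrambled against Parental. Of 6 samples of Ajuba OE and Control, 2 correlated best with their own number, and of 6 of the KD lines, 1. For replicate 2, the deviations had r = 0.505 between Ajuba OE and Control and 0.188 between shAjuba2 and shScrambled. A tally of best matches cannot tell whether samples numbered 2 share a shift, and this was not tested.

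With Parental cells as the control line the sign turned in shAjuba1 for ERBB2 (-0.076), TGFA (-0.10), HBEGF (0.077), TIMP3 (0.22), MTHFD2L (-0.15), PARM1 (-1.57) and RCHY1 (-0.11), in shAjuba2 for ERBB2 (-0.034), AREG (0.91), HBEGF (0.49), BTC (0.49), MTHFD2L (-0.13) and PARM1 (-1.37), and in Ajuba OE for AREG (0.36), BTC (0.43) and MTHFD2L (-0.088). It also turned in Ajuba OE with total count scaling for ERRFI1 (-0.033) and MTHFD2L (-0.033), for MTHFD2L without replicate 2 of both lines (-0.0090), and in shAjuba1 with at least 10 counts in every sample for PARM1 (-0.0012). With each replicate left out, values near 0 crossed it: in shAjuba1 ERRFI1 (-0.020 to 0.055), PARM1 (-0.073 to 0.11) and RCHY1 (-0.034 to 0.15), in Ajuba OE ERRFI1 (-0.018 to 0.10) and MTHFD2L (-0.055 to 0.14), between the KD lines ERBB2 (-0.11 to 0.041), for shScrambled against Parental LRIG1 (-0.0094 to 0.066), and for Control against Parental TGFA (-0.26 to 0.0054) and AJUBA (-0.012 to 0.083). The cause of these changes was not tested.

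Over all genes, the count in shAjuba2 went from 1713 to 3210 with genes of at least 1 count and 3672 with all 16 samples, and from 182 to 4983 with each replicate left out. In Ajuba OE it went from 1147 to 2386 with all 16 samples, 3093 with shScrambled as the control, and 412 to 1701 with each replicate left out. Leaving out each replicate gave 4711 to 9695 in shAjuba1 (8103), 2177 to 5961 between the KD lines (4232) and 3010 to 5369 for shScrambled against Parental (6526, and 1696 with all 16 samples). For Control against Parental (80) it gave 14 to 985, DESeq2 470, genes of at least 1 count 1947, at least 10 counts in every sample 26, the block 318 and all 16 samples 530. BTC had 16 to 101 counts per sample and NRG1 2 or 3 in Ajuba OE, which limits the precision of their fold changes.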
